A study of Mus musculus with 23 samples.

Results

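Metallothioneins Mt1 and Mt2 are followed here through every array of a study of unloaded mouse hindlimb muscle. Every probe set whose symbol in the platform table is exactly Mt1 or Mt2 was taken, which gave 2 probe sets for Mt1 and 1 for Mt2, so 2 of 12393 genes and 3 of 22626 probe sets. The genes were selected on their difference between the flight groups, which is therefore given as a description with no p-value. All animals were C57BL/6J females of 77 days, and the 23 samples, each on an Affymetrix array of its own, form 5 groups. Gastrocnemius, the large calf muscle, was taken after a flight of 11 days and 19 hours (spaceflight, n = 4) or after an equally long stay on earth in an animal enclosure module, the cage type used in flight (ground AEM, n = 4). Whole calf muscle came from mice reloaded for 3.5 hours after 12 days of hindlimb suspension by the tail (reloaded, n = 5), from mice suspended for 12 days (suspension, n = 5), and from mice with no treatment (control, n = 5). No group carries an engineered allele or a drug in the labels.

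Metallothioneins are small cysteine-rich proteins that bind zinc and copper, buffer free zinc inside the cell and take up cadmium and reactive oxygen. Mt1 and Mt2 are made in nearly all tissues, whereas Mt3 is known from brain and Mt4 from stratified squamous epithelium. Their transcription is raised by zinc through the metal-responsive factor Mtf1, which binds metal response elements in the promoter, and by glucocorticoids, interleukin 6 and oxidative stress.

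The promoter windows are shown because both genes moved together across the arrays. RefSeq places the genes next to each other on chromosome 8 of GRCm38.p6, with Mt2 before Mt1 and with Mt4 and Mt3 on the other side of Mt2. Each window runs 5′ to 3′ on the plus strand, from 250 bases before the RefSeq transcript start to 50 bases after it, at chr8:94172368-94172667 for Mt2 and chr8:94178839-94179138 for Mt1. Capitals mark the core of the metal response element, searched as TGCACNC and TGCGCNC on both strands.
Mt2: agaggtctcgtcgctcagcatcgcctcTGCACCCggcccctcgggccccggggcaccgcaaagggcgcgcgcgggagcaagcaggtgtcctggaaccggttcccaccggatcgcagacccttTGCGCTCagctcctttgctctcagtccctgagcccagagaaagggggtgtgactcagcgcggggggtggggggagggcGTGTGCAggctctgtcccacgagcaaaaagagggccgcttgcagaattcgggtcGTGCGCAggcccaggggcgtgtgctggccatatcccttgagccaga
Mt1: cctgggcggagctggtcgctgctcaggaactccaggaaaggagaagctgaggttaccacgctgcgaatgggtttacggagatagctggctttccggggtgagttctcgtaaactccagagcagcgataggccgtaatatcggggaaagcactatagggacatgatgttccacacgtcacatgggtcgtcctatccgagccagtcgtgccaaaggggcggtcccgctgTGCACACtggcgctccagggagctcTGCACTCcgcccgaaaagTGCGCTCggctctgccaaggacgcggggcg

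The Mt2 window held 4 metal response element cores. Their leftmost bases lay at -223 and -128 on the plus strand and at -50 and 5 on the minus strand, counted from 1 at the transcript start with no base 0. The Mt1 window held 3, at -23, 3 and 21, all on the plus strand. At least 3 such cores were found in 1.97% of 32851 RefSeq promoter windows of the same length and at least 4 in 0.517%, whereas 25.7% held at least 1. The GC box of the factor Sp1 (GGGCGG) had 3 matches in Mt1, the last of which shared a base with the core at 3, and 0 in Mt2, with 35.7% of all windows holding one. The core of the antioxidant response element (TGACNNNGC, in 12.4% of windows) matched once in Mt2, and that of the hypoxia response element (ACGTG, in 19.6%) once in Mt1. Letters of the glucocorticoid receptor half-site (AGAACA, in 19.0% of windows), the STAT site (TTCNNNGAA, in 8.3%) and the E-box (CACGTG, in 7.15%) were in neither window. A match is a run of letters and not a measured binding site. Positions and counts depend on the RefSeq start used, and whether transcription in muscle begins there was not tested. Bases outside the windows were not searched, so a motif absent here may lie further along the promoter.

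**Figure D1:**
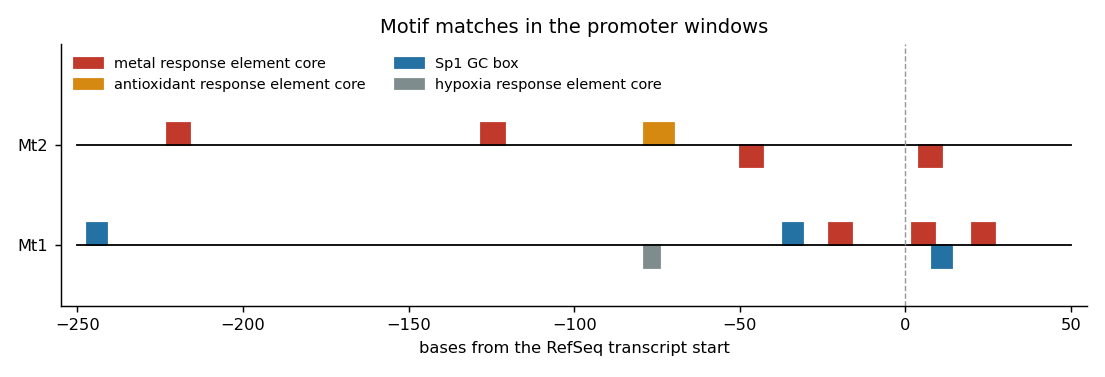
Motif matches in the promoter windows of Mt2 (upper line) and Mt1 (lower line), drawn by distance in bases from the RefSeq transcript start (dashed line). Boxes above a line are matches on the plus strand and boxes below it on the minus strand. The 4 metal response element cores of Mt2 are spread over the window, and the 3 of Mt1 lie close to the RefSeq start used.

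Group names follow the sample titles and source names, which the series design repeats; the free-text descriptions of the 2 flight groups are exchanged between them, and if those were right every flight difference below would change its sign. Median log2 signal per array was 6.15 to 6.23 in gastrocnemius and 6.28 to 6.39 in calf. The interquartile range of the arrays was 2.75 to 2.91 and 2.21 to 2.46 in these experiments, so levels were not compared between them. The 8 skeletal muscle markers, among them creatine kinase Ckm and skeletal actin Acta1, averaged between 13.07 and 13.24 on the 23 arrays, which fits the labelled tissue. The number of arrays limits the precision.

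Mt2 was far higher in the flown muscle. It had log2 signals of 12.19, 12.46, 11.97 and 11.79 in spaceflight replicates 8 to 11, against 7.76, 10.51, 8.21 and 8.44 in ground AEM replicates 1 to 4. The groups did not overlap, and ground AEM replicate 2 stood between the spaceflight arrays and the other 3 ground arrays. The mean was 12.10 ± 0.29 in spaceflight and 8.73 ± 1.22 in ground AEM (SD, n = 4 each), a log2 difference of 3.37 ± 0.43 (SE) or 10.3-fold, with a 95% interval of 5.42-fold to 19.8-fold. This was the highest difference of the 9133 genes tested. In whole muscle, more cells that carry a transcript and more transcript per cell cannot be told apart.

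Mt1 separated the flight groups in the same way, by a smaller amount. The brighter of its probe sets had log2 signals of 11.51, 11.72, 11.48 and 11.69 in spaceflight replicates 8 to 11, against 8.54, 10.88, 8.93 and 9.06 in ground AEM replicates 1 to 4. The groups again did not overlap, with ground AEM replicate 2 again the highest of the ground arrays. The mean was 11.60 ± 0.12 in spaceflight and 9.35 ± 1.04 in ground AEM (SD, n = 4 each), a log2 difference of 2.25 ± 0.36 (SE) or 4.75-fold, with a 95% interval of 2.76-fold to 8.18-fold. Mt1 ranked the third of all genes tested by its flight difference, after Mt2 and Ddit4, an inhibitor of mTOR signalling. Both members were among the 3.18% of genes called higher and the 5.64% called in either direction in this comparison by limma (Benjamini-Hochberg adjusted p under 0.05), and both among the 12.4% whose groups did not overlap, from which nothing is read because these values chose the genes. The call of Mt1 ended under 1 of 15 alternatives, a prior variance that followed the mean level and was fitted robustly, and that of Mt2 under 0 of 15. These alternatives refit the values that chose the genes, so they too are a description.

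The other Mt1 probe set gave a dim signal. It read 6.52, 6.46, 6.15 and 6.35 in spaceflight replicates 8 to 11, against 4.88, 5.81, 4.87 and 5.01 in ground AEM replicates 1 to 4. It exceeded the level filter of 5.83 on the 4 spaceflight arrays alone, so it passed through the group where it was high. Its log2 difference was 1.23 ± 0.18 (SE), smaller than in the brighter probe set and in the same direction. The manufacturer's name of the brighter probe set marks probes that can match several transcripts, and whether it also bound Mt2 message was not tested. Mt3 and Mt4 lay below the filter on all 23 arrays. Mt3 averaged 4.66 ± 0.17 in spaceflight and 4.43 ± 0.12 in ground AEM, and Mt4 averaged 4.19 ± 0.10 and 4.26 ± 0.10 in the same groups (SD, n = 4 each).

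**Figure D2:**
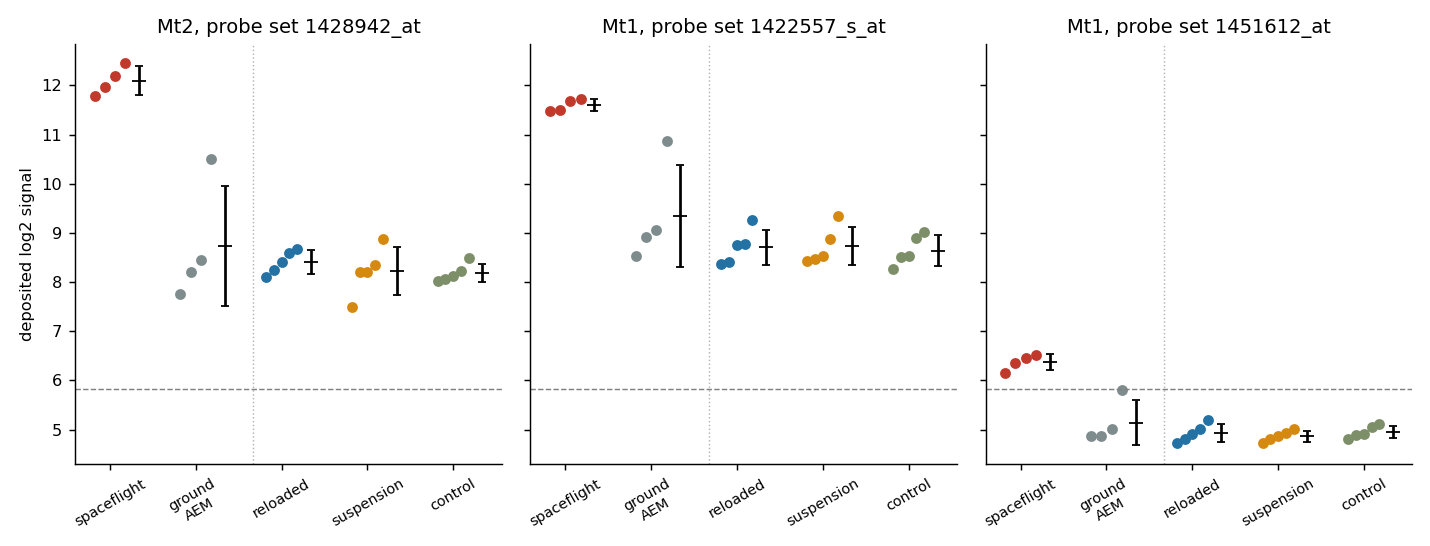
Deposited log2 signal of the 3 member probe sets on every array, by group (points), with the group mean and SD (bar at the right of each group); the dotted line separates the gastrocnemius from the calf experiment and the dashed line is the level filter of 5.83. In each panel the spaceflight arrays lie above the ground AEM arrays, 1 of which lies between, and the 3 calf groups overlap; levels on either side of the dotted line are not compared.

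The Mt2 probe set changed more than the brighter Mt1 probe set in flight. The log2 signal of Mt2 minus that of Mt1 on the same array was 0.68, 0.73, 0.50 and 0.10 in spaceflight replicates 8 to 11, against -0.78, -0.36, -0.72 and -0.62 in ground AEM replicates 1 to 4. These differences between probe sets carry each probe set's own brightness, so only their change between groups is given. The size of a change also depends on the probe set, since the 2 Mt1 probe sets changed by 2.25 and 1.23. Whether the transcripts of the genes changed by unequal amounts was therefore not settled. The change was 1.12 log2 units, the amount by which the Mt2 difference exceeded that of the brighter Mt1 probe set, with every spaceflight array above every ground array. Because the flight values chose the genes, it has no test.

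Ground AEM replicate 2 decided the spread in its group. It exceeded the mean of the other 3 ground arrays by 2.38 log2 units in Mt2, 2.03 in the brighter Mt1 probe set and 0.90 in the dim one. Among the 9133 genes its excess in Mt2 ranked the second and that in Mt1 the third, after Ddit4 (3.10). Without that array the flight difference was 3.97 for Mt2 (15.6-fold) and 2.76 for Mt1 (6.76-fold). Its Mt2 value still lay 1.27 below the lowest spaceflight array and its Mt1 value 0.60 below.

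Neither gene passed the test in calf muscle after 12 days of suspension. Mt2 had 8.20, 8.88, 8.34, 7.50 and 8.21 in suspension replicates 11, 25, 30, 8 and 9, against 8.49, 8.02, 8.12, 8.06 and 8.24 in control replicates 19, 1, 21, 22 and 2. The suspension arrays lay on both sides of the controls, with replicate 8 the lowest and replicate 25 the highest of the 15 calf arrays. The mean was 8.23 ± 0.49 in suspension and 8.19 ± 0.19 in control (SD, n = 5 each), a log2 difference of 0.04 with a 95% interval of -0.32 to 0.40 (limma adjusted p = 0.97; exact permutation p = 0.857). Mt1 averaged 8.73 ± 0.39 in suspension and 8.64 ± 0.31 in control, a difference of 0.09 with an interval of -0.29 to 0.47 (limma adjusted p = 0.921; exact permutation p = 0.714). In this comparison limma called 0.372% of the genes tested, 0.131% higher and 0.241% lower, and the groups did not overlap in 2.04%. The intervals reach a fold change of 1.32 in Mt2 and 1.38 in Mt1 at their upper end, and 0.802 and 0.819 at their lower end, against 10.3-fold and 4.75-fold in flight. The flight and calf effects were not tested against each other, since the flight values chose the genes.

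Reloading for 3.5 hours left both genes within the spread of the calf groups. Mt2 had 8.60, 8.42, 8.26, 8.67 and 8.10 in reloaded replicates 14, 15, 16, 18 and 33, a mean of 8.41 ± 0.24 (SD, n = 5). All 5 values fell between the lowest and the highest suspension array, and 2 of them lay above the highest control. The log2 difference of Mt2 was 0.18 against suspension, with an interval of -0.18 to 0.54 (limma adjusted p = 0.75; exact permutation p = 0.532). Against control it was 0.22, with an interval of -0.14 to 0.58 (limma adjusted p = 0.859; exact permutation p = 0.135). Against suspension limma called 0.58% of genes (0.547% higher, 0.0328% lower), and groups did not overlap in 1.46%. Against control it called 0.318% (0.263% higher, 0.0547% lower), and groups did not overlap in 2.64%.

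Mt1 gave the same picture in reloaded muscle. It had 8.77, 8.75, 8.41, 9.26 and 8.38 in reloaded replicates 14, 15, 16, 18 and 33, against 8.42, 9.35, 8.54, 8.47 and 8.89 in suspension replicates 11, 25, 30, 8 and 9. In control replicates 19, 1, 21, 22 and 2 it had 9.02, 8.51, 8.26, 8.53 and 8.90, and the 3 groups overlapped throughout. The reloaded mean of 8.71 ± 0.36 (SD, n = 5) differed from suspension by -0.02, with an interval of -0.40 to 0.36 (limma adjusted p = 0.981), and from control by 0.07, with an interval of -0.31 to 0.45 (limma adjusted p = 0.988). From high to low, Mt2 was ordered reloaded, suspension, control and Mt1 suspension, reloaded, control, and no neighbours in either order differed beyond their spread. The dim Mt1 probe set lay between 4.72 and 5.20 on all calf arrays, below the filter.

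In the calf groups the change of Mt2 was not separable from that of Mt1. It exceeded the change of Mt1 by -0.05 log2 units for suspension against control, 0.20 for reloaded against suspension and 0.15 for reloaded against control. Exact permutation tests of the 3 differences, two-sided, gave p = 0.746, 0.278 and 0.222, or 0.746, 0.417 and 0.417 after Benjamini-Hochberg adjustment over the 3. The smallest p that 5 arrays against 5 allow is 0.00794.

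**Figure D3:**
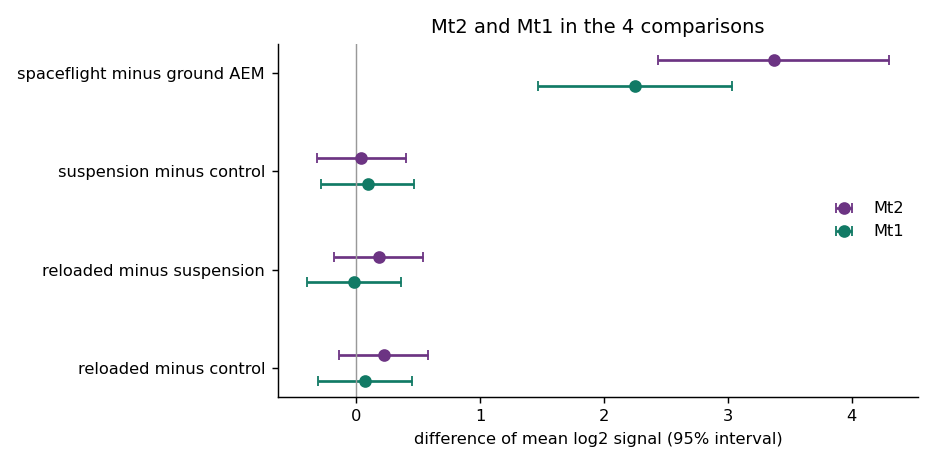
Differences of mean log2 signal for Mt2 and Mt1 in the 4 comparisons, with 95% intervals from limma (points and bars). The flight differences of 3.37 and 2.25 lie far to the right, and each calf interval includes 0.

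Inside a group, arrays high in Mt2 tended to be high in the brighter Mt1 probe set. Whether that probe set also bound Mt2 message, which would add to the relation, was not tested. The dim Mt1 probe set, below the filter on all calf arrays, was not used here. Over the 15 calf arrays, deviations from the group mean of Mt2 and Mt1 had a Pearson r of 0.757 (permutation p = 0.00034, adjusted p = 0.00051 over 3 relations) and a Spearman rho of 0.775 (permutation p = 0.00113, adjusted p = 0.00169). Without suspension replicates 8 and 25, the arrays farthest from the median in Mt2, r was 0.759. Over the 8 gastrocnemius arrays r was 0.972 and rho 0.857, and without ground AEM replicates 1 and 2 r was 0.697. That relation rests in part on ground AEM replicate 2, which stands apart from the rest. Over all 23 arrays r was 0.91 and rho 0.773, and r was 0.744 without the same 2 ground arrays. Relations that include the flight arrays are a description with no p-value. The flight values chose the genes, and the SD of Mt1 was 0.12 in spaceflight and 1.04 in ground AEM, so deviations were not exchangeable between those groups.

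Both genes varied more between arrays of 1 group than most genes. In ground AEM the SD of Mt2 ranked the second and that of Mt1 the third among the 9133 genes, against a median SD of 0.125. Without replicate 2 their SDs of 0.35 and 0.27 still exceeded those of 97.7% and 93.3% of genes. In the calf groups the SD of Mt2 exceeded that of 96.3% of genes in reloaded, 99.6% in suspension and 87.9% in control muscle. For Mt1 the shares were 99.1%, 98.2% and 99.1% in the same groups. In spaceflight the SD of Mt2 exceeded that of 97.3% of genes, whereas that of Mt1 (0.12) exceeded that of 58.6%.

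**Figure D4:**
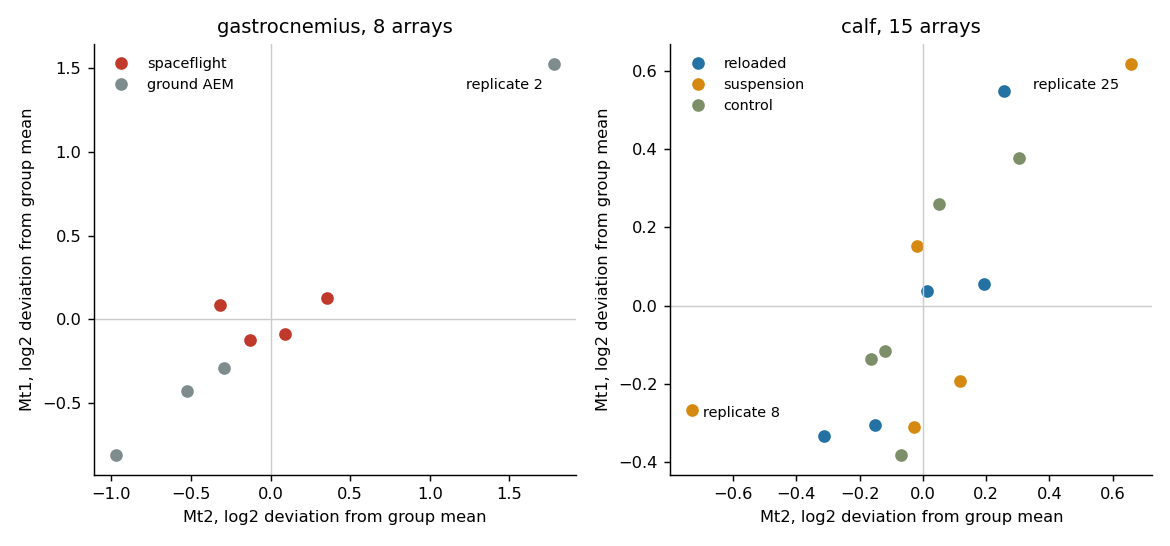
Log2 deviation of Mt1 (vertical axis) from its group mean against that of Mt2 (horizontal axis) on the 8 gastrocnemius arrays (left) and the 15 calf arrays (right), coloured by group. The calf points rise together with r = 0.757, and ground AEM replicate 2 stands alone at the upper right of the gastrocnemius panel.

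The genes whose pattern was most like that of Mt2 were ranked by Pearson r over the 23 arrays, given as a description with no p. Mt1 stands here for its brighter probe set, whose binding of Mt2 message was not tested. With the mean of each experiment removed, Mt1 came first (r = 0.967), followed by Wbp1l (0.958), a membrane adaptor gene, Tns2 (0.935), a focal adhesion gene, the transcription factors Sox4 (0.928) and Foxo1 (0.928), and the cell surface gene Mxra8 (0.914). Over the 15 calf arrays alone r was 0.732 for Mt1, 0.743 for Wbp1l, 0.692 for Tns2, 0.623 for Foxo1, 0.22 for Mxra8 and -0.02 for Sox4. With the mean of each group removed, Mt1 again came first (0.91), followed by Wbp1l (0.858), Ddit4 (0.832), the transcription factor Cebpb (0.792), the kinase Sik1 (0.764) and the mitochondrial carrier Slc25a33 (0.748). Without ground AEM replicate 2 these became 0.811 for Mt1, 0.790 for Wbp1l, 0.657 for Ddit4, 0.702 for Cebpb, 0.546 for Sik1 and 0.552 for Slc25a33. Whether the arrays were normalized together is not given in the sources used here, and a shared normalization can add to such values.

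Wbp1l was first behind Mt1 by both measures. It read 10.83, 11.07, 10.87 and 10.78 in spaceflight replicates 8 to 11, against 9.68, 10.30, 9.66 and 9.73 in ground AEM replicates 1 to 4, so ground AEM replicate 2 was again the highest ground array. Its flight difference was 1.05, and its other 2 probe sets differed by 1.02 and 0.75.

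The other genes of metal handling were called about as often in flight as all genes tested, of which 3.18% were called higher and 2.46% lower. Of 8 tested zinc importers of the Slc39 family, 1 rose and 0 fell, with a median log2 difference of -0.02 against -0.01 over all genes tested. The riser was Slc39a14, which brings zinc and iron into cells. It read 7.43, 7.78, 7.71 and 7.56 in spaceflight replicates 8 to 11, against 6.97, 7.27, 7.11 and 7.24 in ground AEM replicates 1 to 4, without overlap. Its log2 difference was 0.47 ± 0.10 (SE, limma adjusted p = 0.0129), and its other probe set, also above the filter on all arrays, differed by -0.07.

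Among 7 tested zinc exporters of the Slc30 family, 0 were called in flight, with a median of -0.08. Slc30a1, the exporter at the cell membrane and a known target of Mtf1, averaged 6.22 ± 0.12 in spaceflight and 5.90 ± 0.15 in ground AEM (SD, n = 4 each). The difference of 0.32 ± 0.09 (SE) did not pass (limma adjusted p = 0.0652), and with quantile normalization within each experiment 1 member of this list was called. Mtf1 itself averaged 6.78 ± 0.09 in spaceflight and 6.69 ± 0.12 in ground AEM, a difference of 0.10 that did not pass (limma adjusted p = 0.577). Slc39a10, a zinc importer that Mtf1 represses, was not analysed here. Copper handling genes had 0 of 10 called, with a median of -0.01. Iron handling genes had 0 of 9 higher and 1 lower with a median of -0.06, and the called gene, the ferrireductase Steap3 (-0.29), lost its call under 9 of 15 alternatives.

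Genes that answer the other known inducers of metallothioneins differed by list in flight. These lists, like those of metal handling, were chosen with earlier results of these data known, so their counts are a description. Of 20 tested glucocorticoid-responsive genes, none of them a metallothionein, 14 rose and 0 fell, with a median of 0.73, where 3.18% of all genes were called higher and 2.46% lower; the count was 11 to 14 with any 1 array left out. The lipocalin Lcn2, which also answers inflammation, averaged 6.67 ± 0.15 in spaceflight and 5.05 ± 0.52 in ground AEM (SD, n = 4 each). It exceeded the level filter on every spaceflight array (6.48 to 6.84) and on no ground AEM array (4.67 to 5.80). Of the calf arrays, control replicate 2 (6.06) alone exceeded it. Lcn2 therefore passed the filter through the group where it was high, and the count of 14 includes it. Ddit4 (2.82), the transcription factor Cebpd (1.74), Lcn2 (1.62) and the clock gene Per1 (1.59) were the largest of the 14; the call of Ddit4 ended when the prior variance followed the mean level and was fitted robustly (limma adjusted p = 0.102). Genes of interleukin 6 and STAT3 signalling had 0 of 10 called, where 5.64% of all genes were, with a median of -0.06. A gene such as Lcn2 can answer several inducers, and none of the 14 was counted in this list. The counts therefore depend on the list a gene was put in, and which inducer acted was not tested. The largest difference among the 10 interleukin 6 and STAT3 genes was that of Junb, 1.32 ± 0.41 (SE, limma adjusted p = 0.0819), named after its value was seen.

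Targets of Nrf2, the factor of the antioxidant response, had 0 of 8 higher and 2 lower in flight, where 3.18% of all genes were called higher and 2.46% lower, with a median of -0.02. Those were Nqo1, a quinone reductase (-0.49, limma adjusted p = 0.00553), and Nfe2l2, which encodes Nrf2 itself (-0.46, limma adjusted p = 0.0227 and up to 0.0725 under the alternatives). Hypoxia and HIF targets, read against the same shares, had 0 of 10 higher and 1 lower, the growth factor Vegfa (-0.59, limma adjusted p = 0.0146), with a median of 0.08. Ddit4 (2.82) and Angptl4 (0.70), both called higher, were counted in the glucocorticoid list and not in this one. This count too therefore depends on the list a gene was put in.

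In the calf comparisons 0 members of the zinc, copper, iron, glucocorticoid and interleukin 6 lists were called, where 0.372% of all genes were called for suspension against control, 0.58% for reloaded against suspension and 0.318% for reloaded against control. The glucocorticoid-responsive medians in these comparisons were 0.05, -0.08 and 0.02. Of the Nrf2 list, the peroxiredoxin repair enzyme Srxn1 rose in reloaded against suspended muscle by 1.02 (limma adjusted p = 0.00147) and against control by 0.75 (limma adjusted p = 0.049), the second call ending under 11 of 18 alternatives. Of the hypoxia list, Ndrg1 rose in suspension by 0.77 (limma adjusted p = 0.00376, and 0.0518 without suspension replicates 8 and 9) and Egln3 differed by -0.45 (limma adjusted p = 0.0444), a call that ended under 15 of 19 alternatives.

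**Figure D5:**
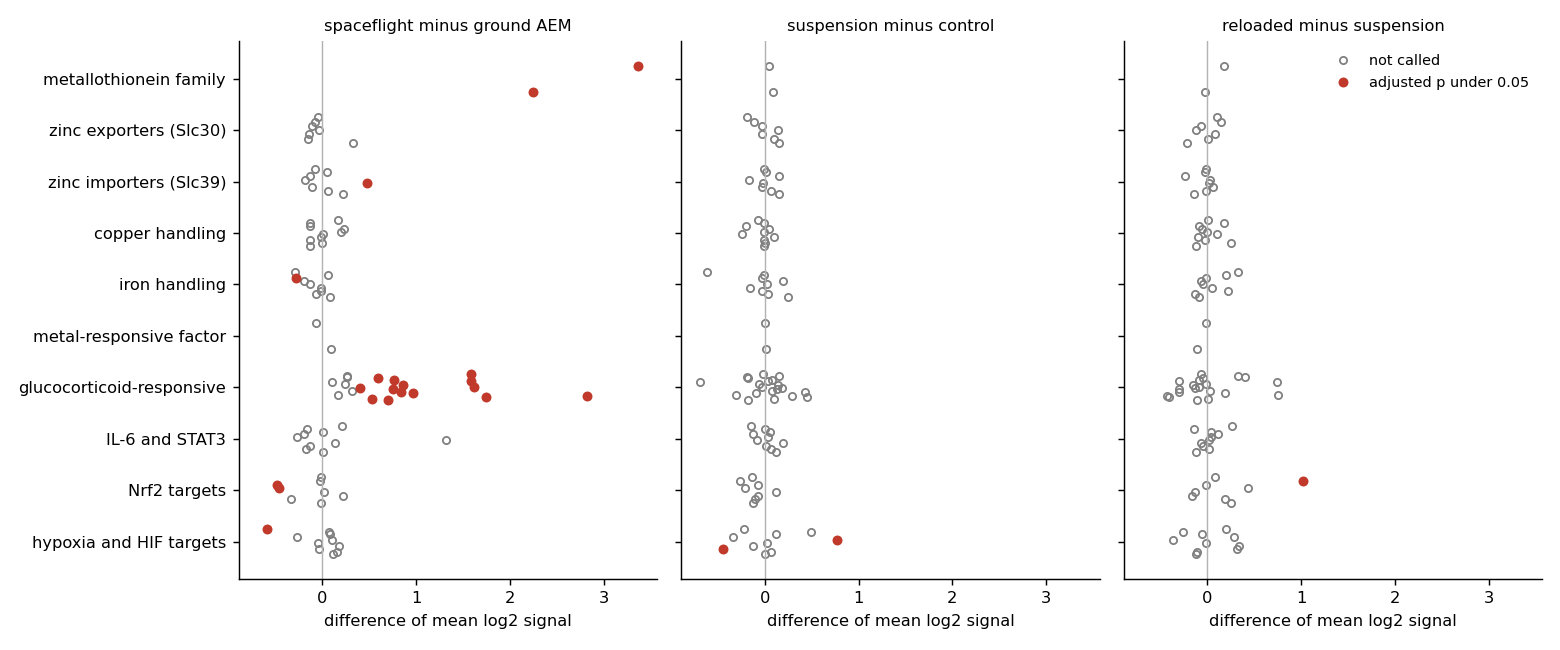
Log2 differences of the tested members of 10 gene lists of metal handling and of known metallothionein inducers (1 point per gene, rows are lists) in 3 comparisons; filled points were called by limma at an adjusted p under 0.05 and open points were not. In flight, 14 of 20 glucocorticoid-responsive genes are filled, against 1 of 8 zinc importers and 0 of 7 zinc exporters.

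The array highest in the metallothioneins was in most groups also the highest in the glucocorticoid-responsive genes. Ground AEM replicate 2 exceeded the rest of its group in 17 of 20 genes of that list, by a median of 0.34, suspension replicate 25 in 18 of 20 by 0.29, and reloaded replicate 18 in 17 of 20 by 0.22. Each of these arrays had the highest mean of Mt1 and Mt2 in its group. In 4 of 5 groups the array highest in Mt1 and Mt2 was also the highest in the mean of the glucocorticoid list, and in control muscle it was the second. The excess was smaller in spaceflight replicate 9 (13 of 20 genes, median 0.12) and control replicate 19 (14 of 20, median 0.06). The same share over all genes tested was not taken, so an excess across the whole array cannot be told apart. Fkbp5 of that list, named after its values were seen, was the lowest of its group on ground AEM replicate 2 (9.60) and spaceflight replicate 9 (10.61). It was the highest of its group on suspension replicate 25 (10.15), reloaded replicate 18 (9.84) and control replicate 19 (9.61). Arrays below the top did not all follow: reloaded replicate 14 was the second highest of its group in the mean of Mt1 and Mt2 (8.68) but lay below the rest of its group in the glucocorticoid list by a median of -0.13, with 6 of 20 genes above. This was seen in the data and is a description.

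Markers of other cell types moved with the flight groups as well. Of 6 tested adipocyte markers 5 rose and 0 fell, where 3.18% of all genes were called higher and 2.46% lower, with the mean of the list between 8.18 and 8.57 in spaceflight and between 7.29 and 7.53 in ground AEM. Ground AEM replicate 2 had the lowest adipocyte mean of the 8 gastrocnemius arrays (7.29) with its high Mt1 and Mt2. Tendon fibroblast markers had 2 of 6 lower, with the mean of the list between 8.48 and 9.02 in spaceflight and between 8.78 and 9.82 in ground AEM. Of 8 macrophage, 8 endothelial, 5 Schwann cell, 4 keratinocyte, 1 erythroid and 4 liver markers tested, 0 rose, and 1 endothelial and 1 erythroid marker fell, read against the same shares. In suspension against control 1 of 5 Schwann cell markers rose and 1 of 6 tendon fibroblast markers fell, where 0.131% of all genes were called higher and 0.241% lower, and 0 of 6 adipocyte markers were called. The part of other cell types in the metallothionein difference was not tested.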

How the data were processed

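The deposited table holds log2 values between 2.49 and 14.23, 1 per probe set and array. RMA and MAS5 are named, without version, per the submitters' processing notes. Which one made the log2 values that the authors deposited, and whether all 23 arrays were normalized together, is not given in the sources used here. Per the labels' protocols, tissue was snap-frozen and RNA was taken with Trizol and RNeasy columns. No normalization was added. Control probe sets (64) were left out, and a gene with several probe sets took the one of highest mean signal. Symbols come from the platform table and were matched to RefSeq by Entrez identifier for 20351 of 20380 probe sets with 1 symbol, with 0 changes. Tests covered the 9133 of 12393 genes that exceeded 5.83 (percentile 40 of all values) on 4 or more arrays.

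Groups were compared with limma 3.58.1 in R 4.3.3 (lmFit and eBayes, two-sided, Benjamini-Hochberg over the 9133 genes). Gastrocnemius (8 arrays) and calf (15 arrays) had separate fits, and the 3 calf groups shared 1 spread. The fit was tested on simulated data. Single values were compared by exact permutation tests, and correlations with 100000 resamples (scipy 1.17.1). Folds are 2 raised to the log2 difference. Sequences are those of RefSeq for GRCm38.p6. Members, gene lists, tests and alternatives were chosen with earlier results of these data known. Named were the family, Mtf1, Slc30a1, Slc39a14, up to 4 called members of each list, and the 5 genes most like Mt2 by each measure. Slc39a10 was also planned and was not analysed. The labels do not say that replicates are separate animals, so the spread behind each p-value may be technical, and no scan date or batch is given in the sources used here.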

Additional observations from a re-analysis of the deposited data

Results flagged for a closer look

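Of 40 sets of values tested for 1 array far from the rest of its group, 3 stood out, and chance flags about 1 in 20. The dim Mt1 probe set read 5.81 in ground AEM replicate 2, while the other 3 ground arrays read 4.87 to 5.01. The same array was the highest of its group in the brighter Mt1 probe set and in Mt2, where its gap to the next array fell short of the threshold. Mt3 read 4.92 in spaceflight replicate 9, while the other 3 spaceflight arrays read 4.55 to 4.60, all below the level filter. Mtf1 read 6.87 in ground AEM replicate 1, while the other 3 ground arrays read 6.62 to 6.64.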

How the results depend on the processing

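No paired analysis was possible because the groups compared share no replicate numbers. The flight difference kept its direction in both genes under 8 alternatives and with each of the 8 arrays left out, between 3.05 and 3.97 for Mt2 and between 1.98 and 2.76 for Mt1, the highest values being those without ground AEM replicate 2. In calf muscle 0 of 124 values of Mt1 and Mt2 passed (limma adjusted p of 0.354 to 1), and those near 0 changed sign with single arrays. With each array left out in turn, suspension minus control ran from -0.064 to 0.18 in Mt1 and from -0.12 to 0.22 in Mt2, reloaded minus suspension from -0.16 to 0.13 and from -0.00077 to 0.35, and reloaded minus control from -0.068 to 0.16 and from 0.16 to 0.30. Without suspension replicates 8 and 9 together, Mt2 differed by -0.068 between reloaded and suspended muscle. The same setting gave 0.29 for Mt2 in suspension minus control, against 0.04 with all arrays, and array weights gave 0.28 (limma adjusted p = 0.612 and 0.627). The Mt2 change minus the Mt1 change for suspension ran from -0.13 to 0.066, and the relation of the genes within groups from r = 0.729 to 0.928.

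Of all genes tested, limma called 515 in flight (885 with each probe set on its own, 283 to 491 with 1 array left out), 34 for suspension against control (7 without suspension replicates 8 and 9, 15 to 47 with 1 array left out), 53 for reloaded against suspension (86 with each probe set on its own) and 29 for reloaded against control (48 with each probe set on its own, 88 with array weights, 53 with only the 2 groups compared). Levels were read from processed values, so background correction could not be varied, and the number of arrays limits the precision.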
